A study of Leucoraja erinaceus with 6 samples.

Results

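The genes described here are the calcium buffers and S100 proteins of the little skate, Leucoraja erinacea, in stage 32 embryos, measured by bulk RNA-seq in dorsal root ganglia (DRG), which hold the cell bodies of sensory neurons and their glia, and in the spinal cord (cord). They are the rows of the count table whose names fit the symbols of calbindin, calretinin, parvalbumin, oncomodulin or the S100 family. This pattern found 4 of 22087 named genes: calb1, calb2a, s100b and s100z. No row name fitted parvalbumin or oncomodulin, and rows that carry only a numbered LOC identifier were not assigned to any family, so parvalbumins are not analysed here. Both groups came from untreated wild-type embryos, with 3 libraries of DRG and 3 of cord, each from tissue pooled from 3 to 4 embryos. The labels describe both tissues as mixtures of neurons and glia, and in each tissue replicates 1, 2 and 3 come from pools numbered 815, 816 and 818.

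Calbindin (calb1) and calretinin (calb2a) bind calcium through EF-hand loops and act mainly as buffers, shaping the calcium transients that follow electrical activity. In mammals and birds they, like parvalbumin, label subsets of neurons: calretinin and parvalbumin are used as labels of large sensory neurons, and calbindin labels Renshaw cells and dorsal horn neurons of the spinal cord. S100 proteins are small EF-hand proteins that act mostly as dimers binding other proteins when calcium rises. S100B is the widely used label of Schwann cells and satellite glia in ganglia and of astroglia in the central nervous system of mammals, and is also made by cartilage and pigment cells. S100Z is a less studied relative.

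The libraries held 24693555 to 29080300 counts. Levels are CPM, counts scaled to a common library total after TMM normalisation, which corrects for differences in library composition, and the log2 fold change is DRG over cord. Composition did differ: the 13 mitochondrially encoded protein genes held 24.3% to 35.7% of the counts of named genes in DRG and 5.39% to 6.88% in the cord. CPM is not corrected for transcript length, so levels are compared between tissues and not between genes. In bulk tissue, fewer cells of a type and less RNA per cell cannot be told apart. Markers of sensory and motor neurons went with the labels, while those of peripheral glia and of some sensory subtypes went both ways. Of 10 tested pan-sensory neuron genes, 8 were higher in DRG and 0 in the cord. Of 8 tested motor neuron genes, 7 were higher in the cord and 1 in DRG. Over all tested genes, 27.8% were higher in DRG and 28.1% in the cord.

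Calretinin and s100b were higher in DRG and calbindin was higher in the cord, each past the threshold of 0.05 on the adjusted p of edgeR's quasi-likelihood test between the tissues and with no overlap between DRG and cord libraries. Such differences are common in these data. Of 16112 genes tested, 55.9% passed in either direction, 27.8% with higher levels in DRG and 28.1% with higher levels in the cord, and the libraries did not overlap for 65% of genes, 30.8% with DRG above and 34.1% with the cord above. The other gene, s100z, reached the filter on low counts through the DRG libraries alone, so that it had to differ, and its values are given as a description with no test.

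**Figure D1:**
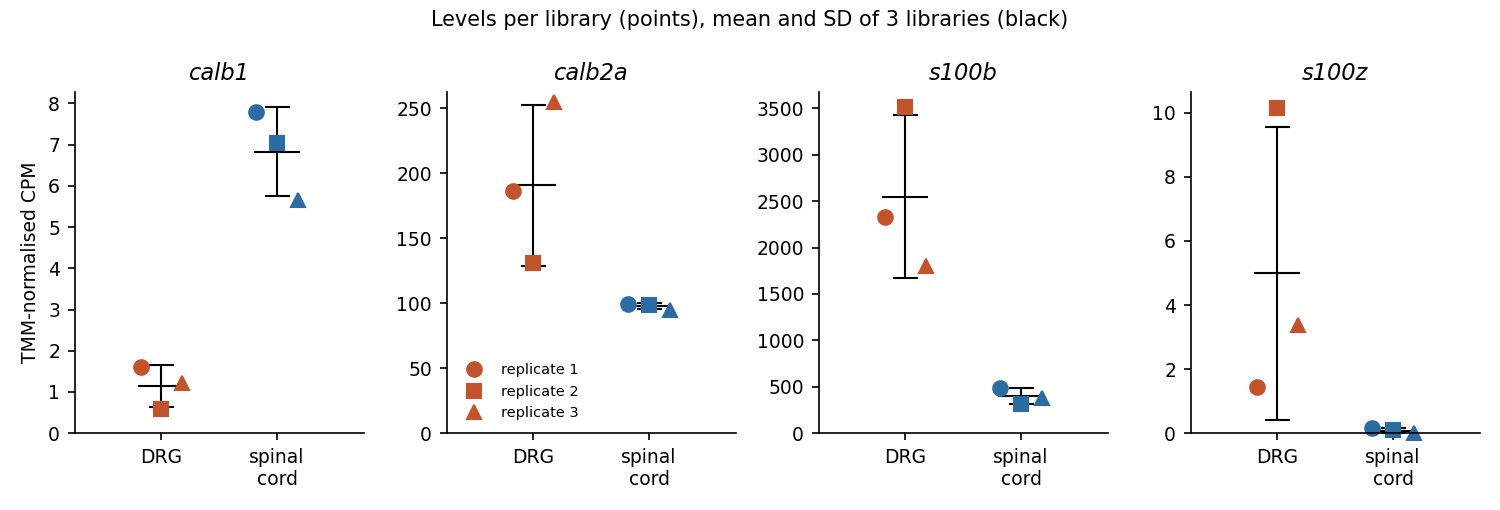
TMM-normalised CPM (linear axis from 0, one scale per gene) of calb1, calb2a, s100b and s100z in each of the 3 DRG (orange) and 3 spinal cord (blue) libraries, with the mean and SD in black. For calb2a the 3 cord libraries sit between 94.9 and 99.6 CPM, while the DRG libraries spread from 131 to 255 CPM.

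Calretinin, the buffer encoded by calb2a, had about the same level in all cord libraries and a higher and more variable level in DRG. The DRG libraries held 187, 131 and 255 CPM in replicates 1, 2 and 3, and the cord libraries 99.6, 98.6 and 94.9 CPM. The tissue means were 191 ± 62.0 and 97.7 ± 2.48 CPM (SD, n = 3 each). The level was 1.95-fold higher in DRG (95% interval 1.35 to 2.82; log2 fold change 0.97 ± 0.23 SE, edgeR adjusted p = 0.00768). The tissues came closest in DRG replicate 2, whose level was 1.31 times that of the highest cord library.

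The size of the calretinin difference depended on how the libraries were scaled. When TMM was replaced by library sizes alone, the log2 fold change was 0.051 (adjusted p = 0.888), and with library sizes counted without the mitochondrial genes it was 0.47 (adjusted p = 0.136). These scalings moved the median log2 fold change of all tested genes from -0.04 to -0.99 and to -0.55. Relative to that median, calb2a stood 1.00 higher on the TMM scale, and 1.04 and 1.02 higher on the other scales. A change of scaling moves all genes by nearly the same amount, so this distance could hardly change and is no check on the call. With library sizes alone, 15.5% of the 10882 calls over all genes were higher in DRG and 84.5% in the cord, against 49.7% and 50.3% on the TMM scale.

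Calbindin, encoded by calb1, was the only one of the 4 genes with a higher level in the cord, and it had few counts in DRG. Its counts were 28, 10 and 27 in DRG replicates 1, 2 and 3, and 306, 238 and 221 in the cord libraries. On the CPM scale these were 1.60, 0.586 and 1.22 for DRG, against 7.79, 7.05 and 5.66 for the cord. The lowest cord library stood 3.53 times above the highest DRG library. The tissue means were 1.14 ± 0.513 and 6.83 ± 1.08 CPM (SD, n = 3 each). The level was 5.98-fold lower in DRG (95% interval 3.16 to 11.3; log2 fold change -2.58 ± 0.40 SE, edgeR adjusted p = 0.000897). With library sizes alone the log2 fold change was -3.52 (adjusted p = 0.000133).

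The pair of buffers thus had opposite directions on the TMM scale, and their raw counts were also compared within each library, where no scaling enters. The log2 ratio of calb1 to calb2a counts was -6.87, -7.80 and -7.71 in DRG replicates 1, 2 and 3, and -3.68, -3.81 and -4.07 in the cord. It averaged -7.46 ± 0.515 in DRG against -3.85 ± 0.199 (SD, n = 3 each), a difference of -3.61 with a two-sided exact permutation p of 0.1, the lowest that this design of 3 and 3 libraries allows. The sets of libraries did not overlap in this ratio, nor in the ratios of calb1 and of calb2a to s100b. This made 3 ratios in all, each with an exact p of 0.1. The ratios of calb1 to calb2a and to s100b pair genes whose libraries already lay apart in opposite directions. Their lack of overlap and their p of 0.1 were thus fixed and add no support of their own. The ratio of calb2a to s100b was not fixed in this way.

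S100b, whose protein is used as a glial label in mammals, was higher in every DRG library than in any cord library. DRG replicates 1, 2 and 3 held 2333, 3516 and 1798 CPM, and the cord libraries 488, 319 and 382 CPM. The lowest DRG library stood 3.68 times above the highest cord library. The tissue means were 2549 ± 879 and 396 ± 85.3 CPM (SD, n = 3 each). The level was 6.43-fold higher in DRG (95% interval 4.01 to 10.3; log2 fold change 2.68 ± 0.29 SE, edgeR adjusted p = 0.000159). With library sizes alone the log2 fold change was 1.70 (adjusted p = 0.000337).

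The level of s100z was low in DRG and at the limit of detection in the cord. It had 25, 173 and 75 counts in DRG replicates 1, 2 and 3, and 6, 3 and 0 counts in the cord libraries. These are 1.43, 10.1 and 3.39 CPM in DRG, and 0.153, 0.0888 and 0 CPM in the cord, where the library with 0 counts allows up to 0.0768 CPM. That limit reflects the sampling of reads alone, because PCR copies were not marked with molecular identifiers.

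Most of the DRG counts of s100z came from replicate 2. The DRG mean was 4.99 ± 4.57 CPM (SD, n = 3), or 2.41 CPM over the other DRG libraries. The fitted log2 fold change was 5.88 ± 1.06 SE, 4.84 without DRG replicate 2 and 4.91 with library sizes alone. Without cord replicate 1, which had the most counts of the cord libraries, the others hold no more than 3 counts each. The DRG mean was 60.2 times a floor of 3 counts in each of these, or 29.1 times without DRG replicate 2. Neither value is a lower bound, because cord replicate 1 was left out and 3 counts can come from a level above that floor. For cord replicate 2, the sampling of reads alone gave a range of 0.0183 to 0.260 CPM. The variation between libraries of a tissue, as a biological coefficient of variation, was 70.6% for s100z, against 20.8% for calb2a, 24.1% for s100b, 33.7% for calb1 and 28.6% for the common value over all genes.

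**Figure D2:**
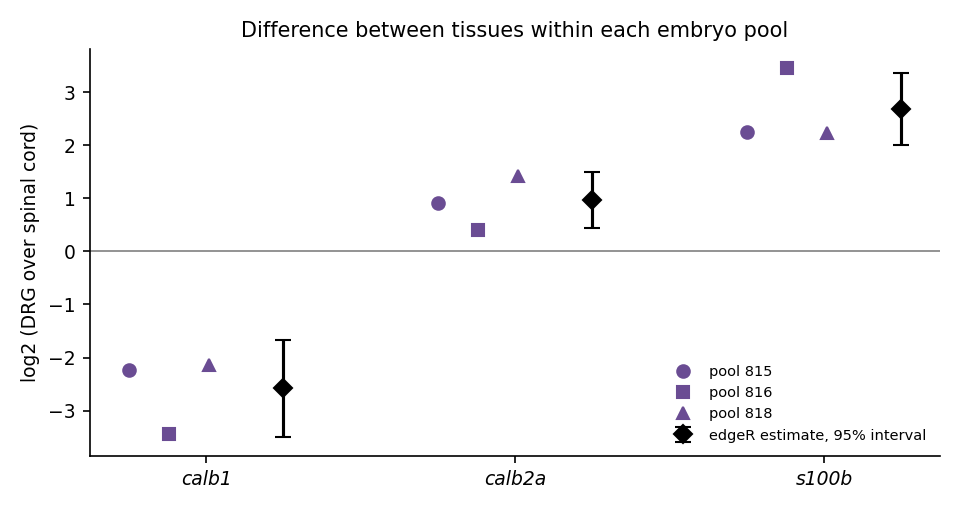
Log2 difference between DRG and cord (CPM with a prior count of 2) within each embryo pool for calb1, calb2a and s100b, beside the edgeR estimate and its 95% interval over all libraries. In every pool calb1 lies below 0 and calb2a and s100b lie above 0, with pool 816 farthest from 0 for calb1 and s100b and nearest to 0 for calb2a; s100z is not drawn because of its counts of 3 and 0.

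Because both tissues of a pool carry the same number, each difference was also taken within pools. For calb2a it was 0.91, 0.41 and 1.42 on the log2 scale in pools 815, 816 and 818. For s100b it was 2.26, 3.46 and 2.23, and for calb1 it was -2.23, -3.44 and -2.15. The direction was the same in 3 of 3 pools for each of these genes. This follows from the lack of overlap between the tissues and adds no support of its own. A pool holds 1 library of each tissue, so no test within it was possible.

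DRG replicate 2, of pool 816, was at an end of the DRG range for each of the 4 genes: highest for s100b and s100z and lowest for calb1 and calb2a. Marker lists also moved between the DRG libraries. The summed level of the mechanoreceptor list, genes of touch-sensing neurons, came to 951, 685 and 1200 CPM in DRG replicates 1, 2 and 3, the same order as that of calb2a. That order was also seen in the proprioceptor list (630, 552 and 788 CPM) and the spinal interneuron list (55.9, 54.5 and 72.5 CPM). Most of the proprioceptor sum came from cdh13 (493, 399 and 658 CPM), and the other tested genes of that list had other orders. The summed level of the nociceptor list, genes of pain-sensing neurons, was 651, 911 and 486 CPM, and that of the connective tissue list was 2482, 3616 and 1484 CPM, the same order as that of s100b. The cartilage list (135, 151 and 81.2 CPM) and the blood and immune list (127, 149 and 72.1 CPM) had it too. So did the share of counts in the mitochondrially encoded protein genes, at 33.7%, 35.7% and 24.3%. An order over 3 libraries is thus particular to no list. The peripheral glia list summed to 6127, 10762 and 6118 CPM. It was thus highest in replicate 2, as was s100b, but almost equal in replicates 1 and 3, and its genes did not all share an order. That the blood and immune list was highest in replicate 2 came from the leukocyte gene ptprc, chosen after its values were seen, at 11.7, 67.0 and 13.5 CPM. Its genes rhag (77.3, 45.9 and 35.3 CPM) and lmo2 (37.6, 35.3 and 23.1 CPM) were highest in replicate 1. The part of these cell types in the levels of the 4 genes was not tested. When DRG replicate 2 was left out, calb2a, s100b and calb1 had log2 fold changes of 1.17, 2.38 and -2.28, each past the threshold (adjusted p = 0.000911, 0.000209 and 0.00108).

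S100b was then set beside genes of the glial lists, since its protein is used as a glial label in mammals. Genes of the peripheral glia list went both ways: of 9 tested, 3 were higher in DRG, 5 were higher in the cord and 1 did not pass, with a median log2 fold change of -1.95 against -0.04 for all tested genes. The genes higher in DRG were egr2b, the regulator of Schwann cell myelination, pmp22b, a protein of peripheral myelin, and foxd3, a neural crest and glial regulator, at log2 fold changes of 4.47, 3.93 and 1.90. The level of pmp22b was 943 ± 72.2 CPM in DRG and 62.1 ± 14.7 CPM in the cord (SD, n = 3 each; edgeR adjusted p = 6.7e-06).

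Other genes of that list lay on the opposite side from s100b. Which glia made these transcripts was not tested, and genes of that list need not be confined to peripheral glia. The glial regulator sox10 was at 42.1, 45.2 and 43.2 CPM in DRG replicates 1, 2 and 3 and at 317, 355 and 307 CPM in the cord (log2 fold change -2.91 ± 0.14 SE, edgeR adjusted p = 3.82e-06). The myelin genes mpz and plp1a had log2 fold changes of -3.57 and -4.01 (adjusted p = 9.39e-05 and 2.32e-06). The log2 ratio of s100b to sox10 within a library averaged 5.81 in DRG and 0.26 in the cord. This depended on the gene chosen. The ratio to egr2b averaged 7.86 in DRG and 9.51 in the cord, and that to pmp22b 1.38 and 2.68. For the other genes of the list it was higher in DRG. The genes sox10 and foxd3 were named after their values were seen.

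Most genes of the central and radial glia list, which covers astroglia, oligodendrocyte lineage cells and the lining of the central canal, were lower in DRG. Of 12 tested, 10 were higher in the cord and 2 were higher in DRG, with a median log2 fold change of -3.24. Those higher in DRG were cnp, at 1.00 (edgeR adjusted p = 0.0061), and pdgfra, named after its values were seen, at 1.19. With library sizes alone 0 genes of the list were higher in DRG and 10 in the cord. The glutamate transporter slc1a2b, an astroglial gene, was at 17.9 ± 3.55 CPM in DRG and 1799 ± 145 CPM in the cord, and the oligodendrocyte lineage regulator olig2 was at 0.447 ± 0.297 and 51.2 ± 5.90 CPM (SD, n = 3 each; log2 fold changes -6.65 and -6.84, adjusted p = 2.16e-06 and 5.04e-06). The filament gene gfap, named after its values were seen, had a log2 fold change of -5.04 (adjusted p = 9.35e-06).

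**Figure D3:**
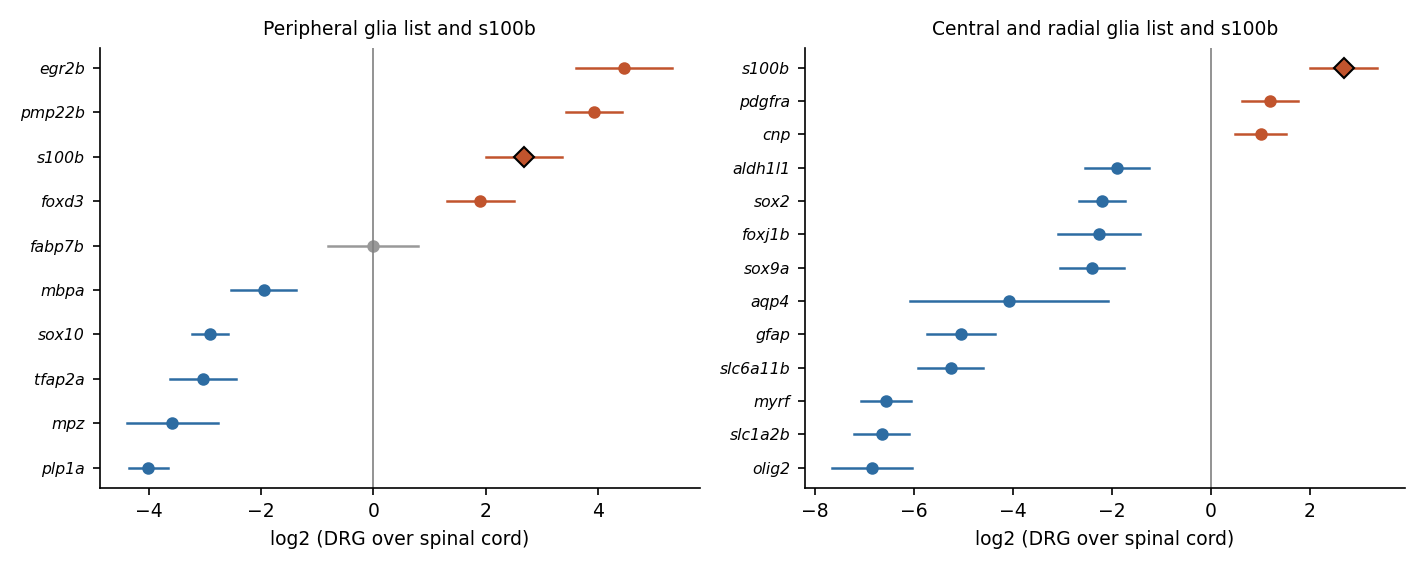
Fitted log2 fold change (DRG over cord) with 95% intervals for the tested genes of the peripheral glia list (left) and the central and radial glia list (right), each with s100b as a diamond. Orange marks genes higher in DRG and blue genes higher in the cord at an adjusted p under 0.05, grey the rest; s100b lies at 2.68, below egr2b and pmp22b and above every gene of the central list.

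Cartilage and pigment cells also make S100B in other vertebrates, and their markers were followed for that reason. The cartilage list of 7 tested genes had 2 higher in DRG and 3 higher in the cord, and its summed level was 81.2 to 151 CPM in DRG and 140 to 172 CPM in the cord. The cartilage collagen gene col2a1a was at 69.8 CPM in DRG and 13.8 CPM in the cord (log2 fold change 2.34). In the other direction, cnmd and sox9a had log2 fold changes of -2.55 and -2.40, and the median of the list was -0.46. The pigment cell list of 4 tested genes summed to 2.03 to 3.89 CPM in DRG and 57.8 to 91.7 CPM in the cord, with 0 genes higher in DRG and 2 higher in the cord. Most of the cord sum came from kita, at 77.5, 52.4 and 63.2 CPM in cord replicates 1, 2 and 3. The sum is thus largely the level of 1 gene, and which cells made kita was not tested. No gene of either list was at 0 in all libraries of DRG. The part of these cells in the s100b level was not tested.

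Sensory neuron subtype lists were followed because calretinin labels sensory subtypes in other vertebrates. All 8 tested mechanoreceptor genes passed, 4 in each direction, with a median log2 fold change of 0.33. The receptor gene ret, of mechanoreceptors and other sensory neurons, was at 414 ± 135 CPM in DRG and 25.6 ± 3.51 CPM in the cord (SD, n = 3 each; log2 fold change 4.01, edgeR adjusted p = 2.14e-05). The transcription factor gene mafaa was at 22.5, 19.6 and 35.4 CPM in DRG replicates 1, 2 and 3 and at 7.71, 8.47 and 7.09 CPM in the cord (log2 fold change 1.74, adjusted p = 0.000535). The sodium channel gene asic1b and the GDNF family receptor gene gfra2b were lower in DRG (-2.30 and -2.12).

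The proprioceptor list, genes of the neurons that sense muscle stretch and that parvalbumin labels in mammals, had 3 of 8 tested genes higher in DRG and 2 higher in the cord (median 0.02). Of its ETS factor genes, etv4 was higher in DRG, at 64.5 CPM against 3.04 in the cord, and etv1 was lower in DRG, with a log2 fold change of -3.08. The nociceptor list had 4 of 5 tested genes higher in DRG and 1 higher in the cord (median 2.36), with calca, the gene of the peptide CGRP, at 3.26 and the potassium channel gene kcnk18 at 9.78. These counts stand beside 55.9% of all genes passing in either direction.

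Calbindin labels spinal interneurons in other vertebrates, and the spinal neuron lists had the same direction as calb1. Of 16 tested genes of the inhibitory and commissural interneuron list, 13 were higher in the cord, 2 were higher in DRG and 1 did not pass (median -5.53). The glycine transporter gene slc6a5 was at 1.61 ± 0.510 CPM in DRG and 213 ± 17.5 CPM in the cord (SD, n = 3 each; log2 fold change -7.03, edgeR adjusted p = 2.16e-06), and evx1, chosen after its values were seen, had 0 counts in every DRG library. Of those higher in DRG, onecut2, a factor of several neuron classes, had a log2 fold change of 2.41 (adjusted p = 0.000581). Motor neuron genes had a median log2 fold change of -6.36, with chata, the gene of the acetylcholine-making enzyme, at -6.90 (adjusted p = 6.92e-06). The summed level of the interneuron list was 54.5 to 72.5 CPM in DRG and 1969 to 2099 CPM in the cord. Most of the cord sum came from slc6a9, named after its values were seen, at 1498, 1479 and 1412 CPM in cord replicates 1, 2 and 3. In DRG slc6a9 was at 28.8, 29.7 and 32.6 CPM. The sum is thus largely the level of 1 gene, and the part of interneurons in the calb1 difference was not tested.

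General neuronal genes went both ways as well. Of 7 tested, 4 were higher in DRG and 2 higher in the cord (median 0.49), with uchl1, a ubiquitin hydrolase gene of neurons, at 4.66 and the synaptic vesicle calcium sensor gene syt1a at -3.87. The summed level of this list was 20462 to 22472 CPM in DRG and 3858 to 4222 CPM in the cord.

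**Figure D4:**
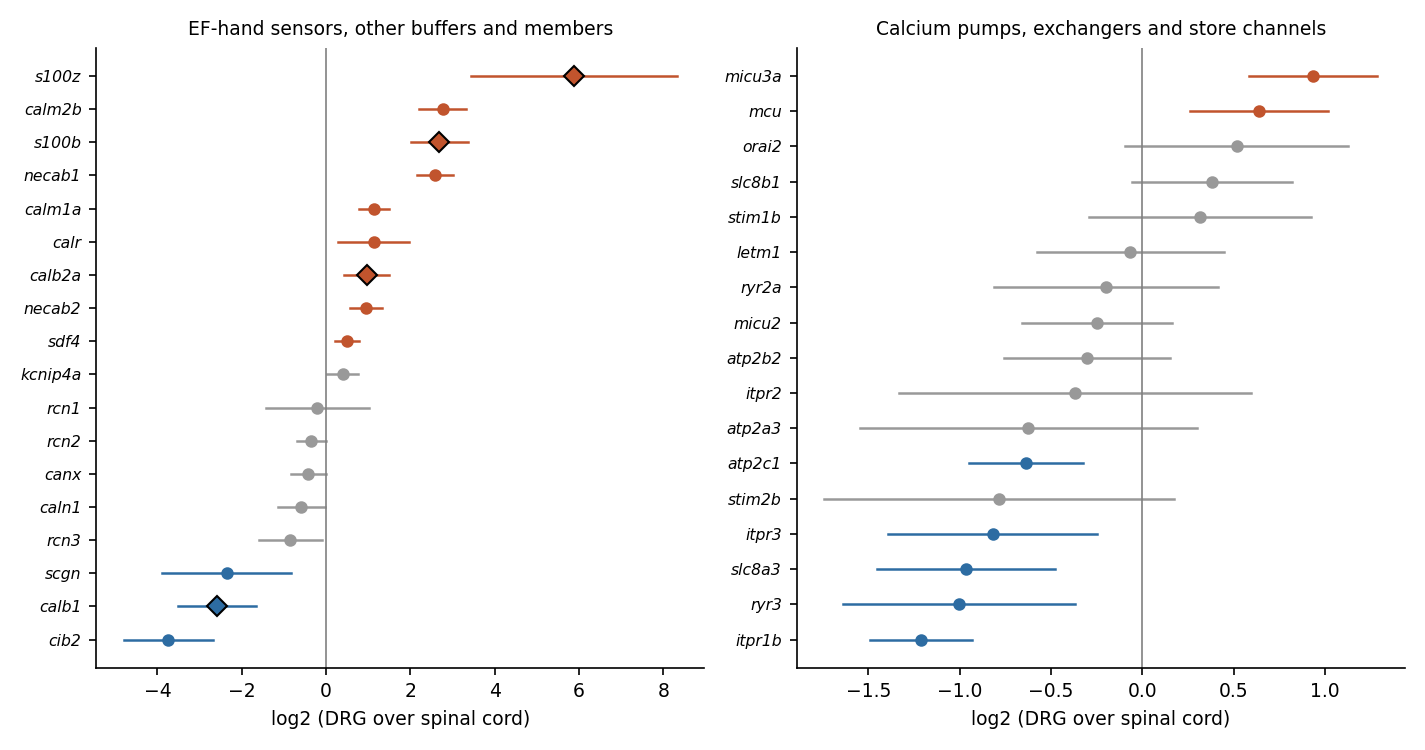
Fitted log2 fold change (DRG over cord) with 95% intervals for the tested EF-hand sensors and other calcium buffers together with calb1, calb2a, s100b and s100z as diamonds (left), and for calcium pumps, exchangers and store channels (right). Orange marks genes higher in DRG and blue genes higher in the cord at an adjusted p under 0.05, grey the rest (the colour of s100z is no test); the left axis spans a wider range than the right one, where the fitted values lie between -1.21 and 0.93.

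Other genes that bind or sense calcium also divided between the tissues. Of 14 tested EF-hand sensors and other buffers, 6 were higher in DRG, 2 were higher in the cord and 6 did not pass (median log2 fold change 0.09), a share called of 57.1% against 55.9% of all genes. With library sizes alone 2 were higher in DRG and 7 in the cord. The calmodulin gene calm2b was at 9621 CPM in DRG and 1418 CPM in the cord (log2 fold change 2.76 ± 0.24 SE, edgeR adjusted p = 5.96e-05). The neuronal EF-hand gene necab1 was at 59.1, 87.5 and 76.8 CPM in DRG replicates 1, 2 and 3 and at 13.2, 12.9 and 11.1 CPM in the cord (log2 fold change 2.59 ± 0.18 SE, adjusted p = 2.12e-05). No overlap between tissues was seen for either gene. Calmodulin paralogs encode near-identical proteins, and how the counting treated reads shared between them is not given in the sources used here.

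Secretagogin (scgn), a buffer of the same EF-hand family as calbindin and calretinin, had the direction of calbindin. Its libraries held 24.8, 4.81 and 50.8 CPM in DRG replicates 1, 2 and 3 and 110, 149 and 153 CPM in the cord. DRG replicate 2 was thus the lowest for scgn, as for calb1 and calb2a. The log2 fold change was -2.35 ± 0.66 SE (edgeR adjusted p = 0.0165), and the call was lost without DRG replicate 1 (-2.31, adjusted p = 0.0597).

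Calcium pumps, exchangers and store channels differed by smaller amounts. Of 17 tested, 41.2% passed, against 55.9% of all genes. In this list 2 were higher in DRG, 5 were higher in the cord and 10 did not pass (median log2 fold change -0.30). Those higher in DRG were mcu, the pore gene of the mitochondrial calcium uniporter, and micu3a, a gene of a uniporter regulator, at 0.64 ± 0.16 and 0.93 ± 0.15 SE (edgeR adjusted p = 0.0108 and 0.00116). With library sizes alone these turned to -0.30 and -0.014, and neither passed (adjusted p = 0.269 and 0.955). On that scale 0 genes of the list were higher in DRG and 12 in the cord. Release channels of the endoplasmic reticulum were among those lower in DRG, with itpr1b at 25.4 ± 1.07 CPM in DRG and 58.7 ± 1.97 CPM in the cord (SD, n = 3 each; log2 fold change -1.21, adjusted p = 0.000101).

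Genes of proteins that S100 proteins are known to bind were also followed. Of 5 tested, 3 were higher in DRG and 0 in the cord, with a median log2 fold change of 1.57, a share called of 60% against 55.9% of all genes. The annexin gene anxa1a was at 4497 ± 612 CPM in DRG and 199 ± 9.53 CPM in the cord, and anxa6 at 626 ± 221 and 163 ± 34.9 CPM (SD, n = 3 each; log2 fold changes 4.50 and 1.94, edgeR adjusted p = 3.04e-06 and 0.000711). With library sizes alone 3 were higher in DRG and 2 in the cord.

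The genes whose pattern over the 6 libraries was most like that of each gene were found by the root mean square difference of centred log2 CPM, among genes with a symbol and a mean of at least 10 CPM. For calb2a these were bnc2, nfic and c8h1orf198, at differences of 0.0485, 0.0729 and 0.0797. The first of them, a zinc finger gene, was at 28.2, 20.1 and 36.6 CPM in DRG replicates 1, 2 and 3 and at 13.8, 14.3 and 13.8 CPM in the cord, in each DRG library in the same order as calb2a. For calb1 they were dlgap1a, a scaffold gene of the postsynaptic density, nhsb and the ubiquitin ligase gene smurf1, at 0.139, 0.182 and 0.193.

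For s100b the most similar genes were psma3, a subunit of the proteasome, rtraf and fth1a, the heavy chain of the iron store ferritin, at 0.0942, 0.121 and 0.135. None of these is a gene of the glial lists. For psma3 the libraries held 392, 486 and 270 CPM in DRG replicates 1, 2 and 3 and 72.4, 52.2 and 57.1 CPM in the cord, so that replicate 2 was highest in DRG and replicate 1 highest in the cord, as for s100b. For s100z the best match with an ordinary symbol was itgbl1, an integrin-like gene, at a larger difference of 0.752. These measures describe 6 libraries of 2 tissues and carry no test.

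**Figure D5:**
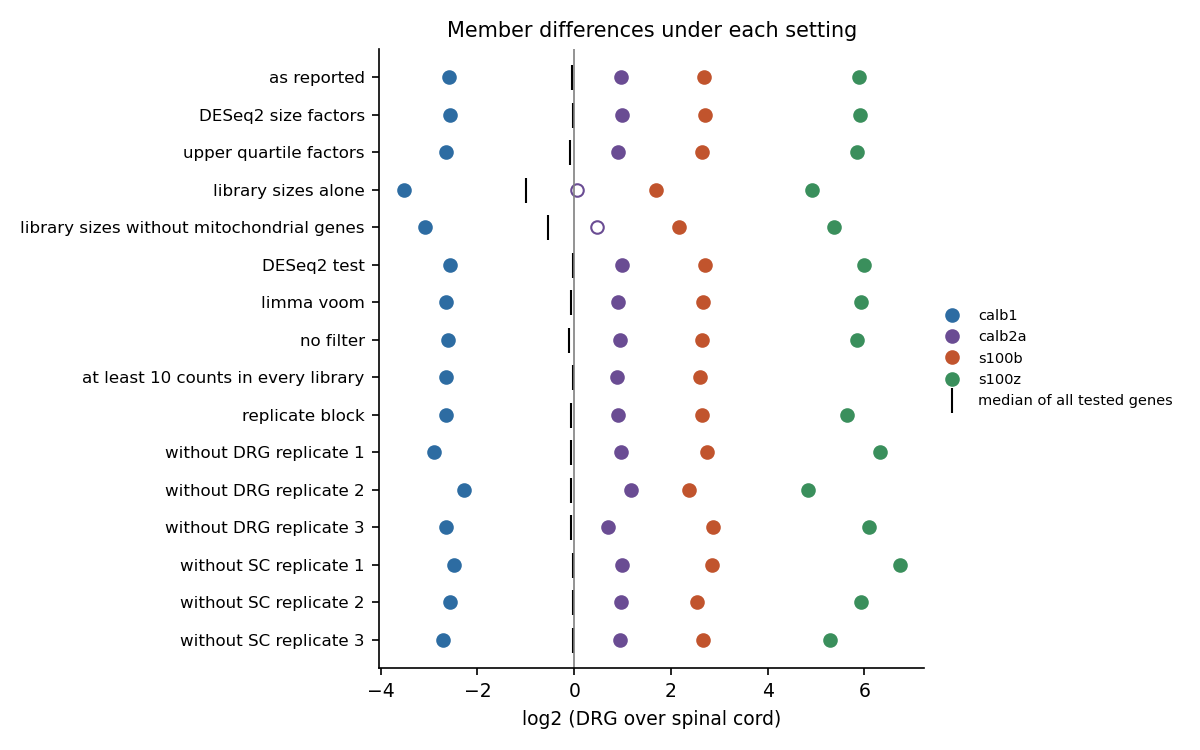
Fitted log2 fold change (DRG over cord) of calb1, calb2a, s100b and s100z as reported and under each other setting, with filled points past an adjusted p of 0.05, open points not past it, and the median of all tested genes as a black tick. The points for calb2a move to 0.051 and 0.47 with library sizes in place of TMM, together with the median of all genes; the filled points of s100z are no test, its point without SC (cord) replicate 1 is a fitted value against libraries with 3 and 0 counts, and s100z is not drawn where at least 10 counts in every library were required.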

How the data were processed

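The deposited data are raw counts, whole numbers per gene, in 1 table with a column for each of 6 libraries. Per the labels' protocols, RNA was polyA-selected, the libraries were stranded, and reads were paired. The submitters' processing notes name Trimmomatic, HISAT2 2.2.0, SAMtools, featureCounts and edgeR 4.4; the genome build, annotation and strand setting are not given in the sources used here, so no coordinates are given and no strand was assumed. A total of 24 rows that name no gene (1.02% to 2.04% of counts) entered neither library sizes nor tests.

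From the counts, genes were filtered with filterByExpr (16112 of 22087 tested) and tested with edgeR 4.0.16 under R 4.3.3 (TMM; glmQLFit and glmQLFTest; a model of tissue alone), with Benjamini-Hochberg adjustment over all tested genes. The standard error is the log2 fold change over the square root of F. Tested on simulated counts for 15800 genes, the DRG and spinal cord comparison recovered 30% of genes changed by 1 on the log2 scale, 72.9% by 2 and 88% by 3. The simulation changed 200 genes, whereas 55.9% of genes passed in the data. The adjustment was therefore stricter in the simulation, and its recovery rates do not hold for these data. Log2 CPM carries a prior count of 2; ratios among calb1, calb2a and s100b use raw counts. All 4 genes matched RefSeq symbols of Leri_hhj_1, whose table was used for names and neighbours. The 4 genes, the 18 lists and the settings were chosen with earlier results of these data known. Named are the 4 genes, at most 2 genes per list and direction with the largest fold change, a mean of at least 10 CPM and no overlap, and 3 most similar genes each; others are said to be chosen later. A member of the calcium pump, exchanger and store channel list is not reported here and is left out of its counts.

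The labels list the pool number as a batch, so numbers pair libraries by label; the correlation across genes of the deviations of paired libraries was 0.48, -0.24 and -0.18 in pools 815, 816 and 818. The replicate block was an alternative, as were DESeq2 size factors, upper quartile factors, library sizes with and without mitochondrial genes, DESeq2 1.42.0, limma voom (limma 3.58.1), other filters and leaving out each library. P-values of the edgeR test set the tissue difference against the spread between libraries of a tissue, each from a different pool. They do not use the pairing, and spread from pool, dissection and library preparation cannot be told apart. Figures were drawn with matplotlib 3.10.9.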

Additional observations from a re-analysis of the deposited data

How the results depend on the processing

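The number of genes that differed was 9002 and ranged from 7416 to 10882 over all settings, within 1.5 times. The directions and calls of calb1 and s100b held in every setting tried. No call is given for s100z, which passed the filter through DRG alone and was not fitted where at least 10 counts in every library were required. The call of calb2a was lost with library sizes alone (0.051) and with library sizes without mitochondrial genes (0.47), where the median of all genes moved too. Leaving out single libraries gave log2 fold changes of 0.69 to 1.17 for calb2a, 2.38 to 2.87 for s100b, -2.90 to -2.28 for calb1 and 4.84 to 6.73 for s100z, the highest of these being no bound. With the replicate block the values were 0.91 for calb2a, 2.65 for s100b, -2.64 for calb1 and 5.64 for s100z, and no call of calb2a, s100b or calb1 changed. Among the 61 other genes followed, 9 lost their call without a change of direction in at least 1 setting, and c8h1orf198, micu3a and mcu reversed with library sizes alone (-0.012, -0.014 and -0.30; the cause was not tested). Counts of calls moved by over 1.5 times for the interneuron list (15 to 5) and the motor neuron list (8 to 2) when 10 counts were required in every library, which leaves 6 and 2 of their genes tested; for the calcium pump, exchanger and store channel (7 to 12), S100 partner (3 to 5), pan-sensory (8 to 5), endothelium (3 to 5) and muscle (1 to 0) lists with library sizes alone; and for the blood list (4 to 2) with the replicate block. Low counts limit calb1 in DRG and s100z in spinal cord.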

Other observations

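Other cell types in the dissected tissue were followed with marker lists. All 6 tested connective tissue genes passed, 5 with DRG above the cord and 1 with the cord above (median log2 fold change 3.10), led by ogna, a matrix proteoglycan gene, at 6.69. Of 4 blood and immune genes 3 were higher in DRG, of 5 endothelial genes 1 was higher in DRG and 2 in spinal cord, and of 2 muscle genes 1 was higher in DRG, a call lost without any 1 of the spinal cord libraries.

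In the RefSeq annotation of Leri_hhj_1, no other gene overlaps the span of calb1, calb2a, s100b or s100z. The neighbours of calb2a are got2a, an aspartate aminotransferase gene, and pnp6, a purine phosphorylase gene. Their log2 fold changes were 1.03 and -3.63 (edgeR adjusted p = 0.00116 and 4.86e-05), against 0.97 for calb2a. The neighbours of calb1 are tmem64 and decr1, at 0.20 and 1.09, neither past the threshold (adjusted p = 0.478 and 0.0543), against -2.58 for calb1. The neighbours of s100b carry only the identifiers LOC129698977 and LOC129698980, at 2.36 and -2.12 (adjusted p = 0.00189 and 4.10e-05), against 2.68 for s100b. The neighbour of s100z that was tested, crhbp, was at 1.73 (adjusted p = 0.0208). These genes were chosen by position, after the data were seen, and whether neighbours move together was not tested.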
